A study of Rattus norvegicus with 42 samples.

Results

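The Bcl2 family decides whether a cell keeps its mitochondria intact when it is stressed. The transcripts described here are those with the gene symbols Bax, Bak1, Bcl2, Bcl2l1, Bcl2l2, Mcl1, Bcl2l11, Bid, Bad and Bbc3 in the table of estimated counts from the hippocampus of neonatal rats. All 10 symbols were found, with 13 transcripts of the 15516 in the table. Of these, 12 passed the filter on low counts, beside 13062 transcripts tested in all. The transcript left out of the tests was NM_031535 of Bcl2l1, which had a rounded count of 0 in 33 of 41 animals.

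In this family the effectors Bax and Bak form pores in the outer mitochondrial membrane, through which cytochrome c leaves to activate caspases. Bcl2, Bcl-xL (from Bcl2l1), Bcl-w (from Bcl2l2) and Mcl1 hold the effectors back. The BH3-only proteins Bim (from Bcl2l11), Bid, Bad and Puma (from Bbc3) sense damage and either block these guardians or activate the effectors. Bax is known as the main effector of developmental death of neurons. Much of the control acts on the proteins themselves, which were not measured here.

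The pups were male Sprague Dawley rats of timed-pregnant dams bought in 2 orders, and 1 animal was taken per litter and treatment. On postnatal day 7 they received a single intraperitoneal injection of phenobarbital at 75 mg/kg (PB), of levetiracetam at 200 mg/kg (LEV) or of saline as vehicle (VEH), and the hippocampus was taken 72 h later. Both drugs are antiseizure medicines, and the comparisons ask how the tissue of the treated pups differs from that of the vehicle pups and between the drugs. Pups of every group, controls included, were killed with an overdose of sodium pentobarbital, itself a barbiturate, and perfused with cold PBS. With 1 VEH animal left out because the study excluded it, 13 VEH, 14 PB and 14 LEV animals were analysed, with 1 library per animal. The sample codes come in 2 forms, which part animals 1 to 6 from animals 7 to 14 in each group, and the form was used as the batch. The labels do not say what it stands for.

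The total per animal was 9499492 to 14488134 estimated counts in VEH, 9586794 to 13140913 in PB and 10112050 to 12482915 in LEV animals. Markers of hippocampal neurons were present, with 8 of 8 transcripts tested, Prox1 and Neurod6 among them. VEH animal 1 went against its label as a male, with counts of 1 for Eif2s3y and 0 for Ddx3, both transcripts of the Y chromosome, where the other 40 animals had 705 to 1028 and 475 to 891. Without this animal, 0 of 12 family transcripts passed the test in each of the 3 comparisons, as with it. Choroid plexus markers summed to between 66.2 and 84300 normalized counts per animal. The ranges of the 3 groups overlapped, but the median sums were 2690 in VEH, 8220 in PB and 21000 in LEV. All 8 choroid plexus transcripts tested had log2 fold changes above 0 for both drugs against VEH, and edgeR called 0 of them. In whole tissue, fewer cells of a type cannot be told apart from less RNA per cell.

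Between PB and VEH, 0 of the 12 family transcripts had an adjusted p under 0.05 in the quasi-likelihood test of edgeR (Benjamini-Hochberg adjusted over all of them), while 5.39% of all tested transcripts did. Transcripts of 2 genes, Bcl2l2 and Mcl1, had an unadjusted p under 0.05, and over all tested transcripts this share was 20.2%. Between LEV and VEH, 0 of 12 passed, against 0.00766% of all transcripts, and 0 had an unadjusted p under 0.05. Between PB and LEV, 0 of 12 passed, against 4.45% of all transcripts, and Bcl2l2 alone had an unadjusted p under 0.05. DESeq2 also called 0 in each comparison. It gave no adjusted p for Bcl2 and Bcl2l1 NM_001033671 in PB against VEH, nor for these, Bcl2l1 NM_001033672 and Bid in PB against LEV. With the study's further limit on the size of the change (0.32 on the log2 scale), 0 family transcripts were called, and the shares over all transcripts were 0.605% for PB against VEH, 0% for LEV against VEH and 0.582% for PB against LEV. The comparisons share animals: both drugs were set against the same VEH pups.

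The intervals show how large a change the data leave room for. In each comparison, the 95% interval of 10 of the 12 transcripts lay wholly within this limit in both directions, between log2 fold changes of -0.32 and 0.32. The exceptions were Bcl2 and the Bcl2l1 transcript NM_001033671, which have low counts. Over all tested transcripts, intervals this narrow made up 74.1% for PB against VEH, 77.6% for LEV against VEH and 74.7% for PB against LEV. The median size of the log2 fold change, regardless of sign, was 0.0406 over the family and 0.0702 over all transcripts for PB against VEH. For LEV against VEH it was 0.0319 and 0.045, and for PB against LEV 0.0585 and 0.0681.

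**Figure D1:**
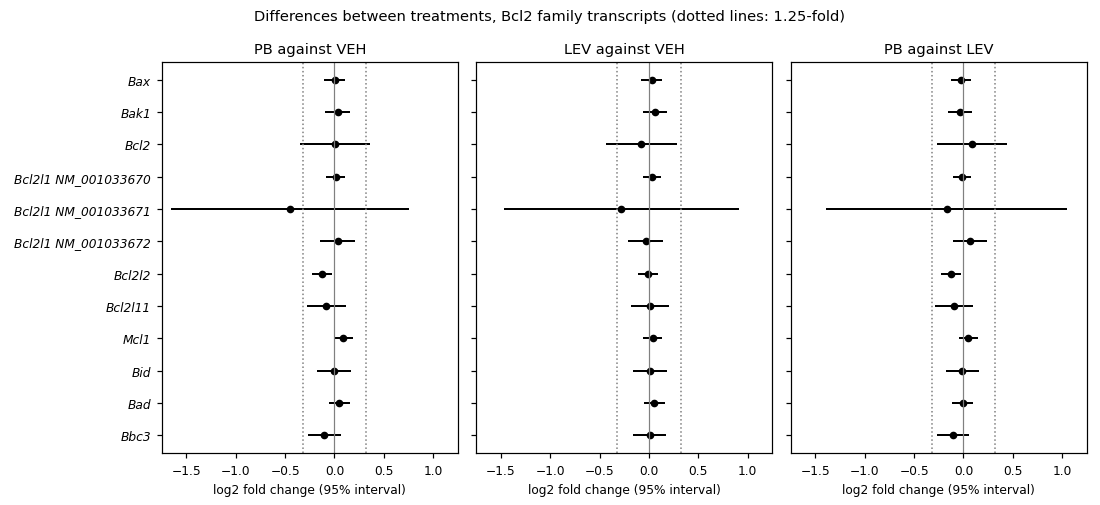
Log2 fold change with its 95% interval (horizontal axis) for the 12 tested Bcl2 family transcripts in the 3 comparisons; dotted lines mark the limit of 0.32 on the log2 scale. All intervals but those of Bcl2 and Bcl2l1 NM_001033671 stay within the dotted lines, and for Bcl2l2 the intervals of both comparisons with PB lie below 0.

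The effectors were close between the treatments. Normalized counts (rounded counts scaled by effective library size) of Bax (NM_017059, chromosome 1 of rn6, 101451801 to 101457209) ran from 421 to 567 in VEH with a median of 500, from 417 to 607 in PB with a median of 486, and from 440 to 642 in LEV with a median of 503. All 3 ranges overlapped widely. Overlap of ranges was nearly universal in these data and does not set the family apart. Of all 13062 tested transcripts, 1 had ranges that did not overlap between PB and VEH. For LEV against VEH and PB against LEV the number was 0. The log2 fold change of Bax was 0.00 after PB (standard error 0.05, 95% interval -0.09 to 0.10, adjusted p = 0.974 by edgeR) and 0.03 after LEV (adjusted p = 0.984). Bak1 (NM_053812, chromosome 20, 5609621 to 5618261), the other effector, had 222 to 315 normalized counts in VEH (median 247), 217 to 311 in PB (median 266) and 223 to 305 in LEV (median 269). Its medians were higher in both drug groups, but the ranges nearly coincided. The log2 fold change of Bak1 was 0.03 after PB (interval -0.08 to 0.15, adjusted p = 0.806) and 0.06 after LEV (interval -0.05 to 0.18, adjusted p = 0.935).

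**Figure D2:**
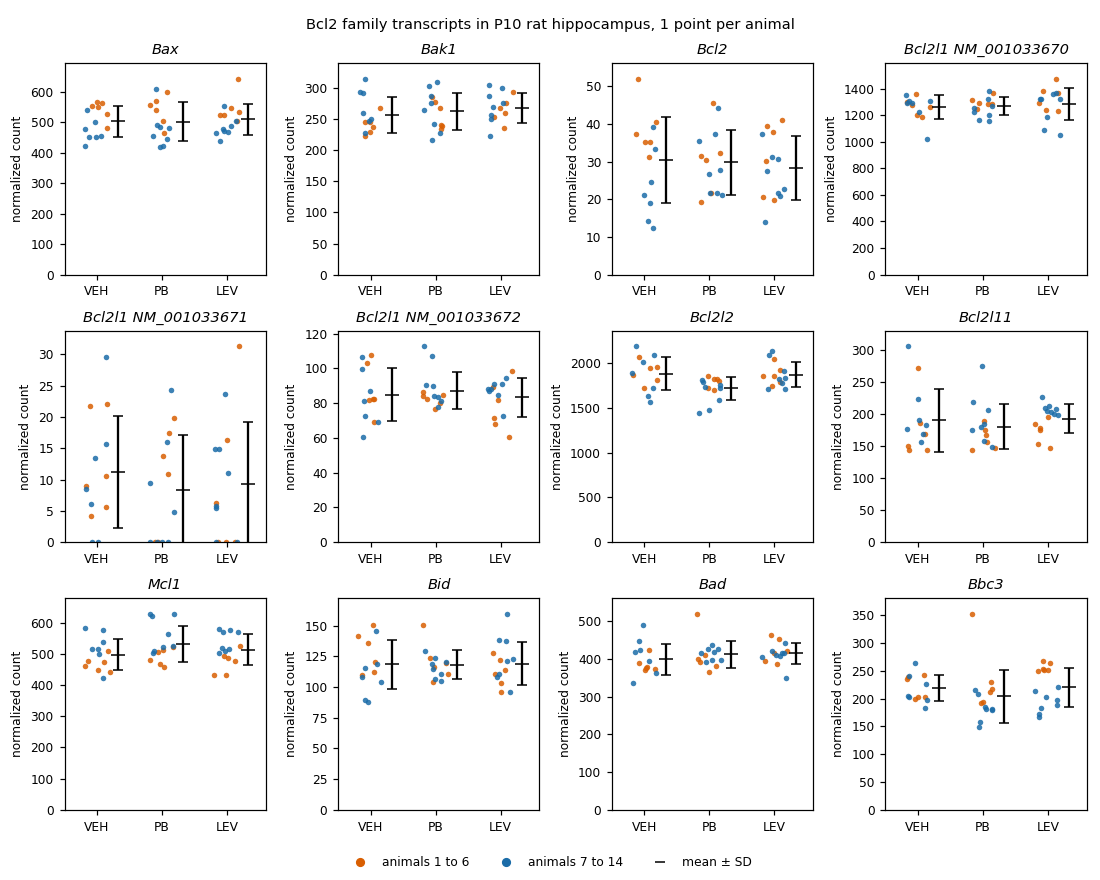
Normalized count (vertical axis, from 0) of each tested Bcl2 family transcript in each of the 13 VEH, 14 PB and 14 LEV animals, coloured by form of sample code, with the group mean and SD beside the points; bars of Bcl2l1 NM_001033671 that would pass below 0 stop at the axis. The 3 groups overlap in every panel, as they do for nearly all of the 13062 tested transcripts. In the panel of Bcl2l2 the PB animals end at 1860 while VEH and LEV animals reach 2190 and 2140.

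Of the genes for the guardians, Bcl2l2 came nearest to the threshold. Bcl2l2 (NM_021850, chromosome 15, 33544312 to 33549166), which encodes Bcl-w, had 1560 to 2190 normalized counts in VEH (median 1890), 1450 to 1860 in PB (median 1750) and 1710 to 2140 in LEV animals (median 1850). The PB values thus overlapped the others in their upper part and lacked their highest values. All 14 PB animals lay below the mean of the VEH animals with the same form of code, and 14 of 14 also lay below the mean of the LEV animals with the same form. Its log2 fold change was -0.13 against VEH (standard error 0.05, 95% interval -0.22 to -0.04, p = 0.0061, adjusted p = 0.0795 by edgeR's quasi-likelihood test). Against LEV it was -0.12 (standard error 0.04, interval -0.21 to -0.03, p = 0.00772, adjusted p = 0.0954). These are levels 0.913 and 0.918 times those of VEH and LEV animals, and neither difference passed the threshold. Between LEV and VEH the log2 fold change of Bcl2l2 was -0.01 (interval -0.10 to 0.08, adjusted p = 0.991).

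Single animals bore on that result. Without VEH animal 8, the lowest of its group, the log2 fold change of Bcl2l2 for PB against VEH was -0.15 and its adjusted p 0.0378, and without VEH animal 9 these were -0.145 and 0.0475. In the other 39 of 41 fits that each left out 1 animal, Bcl2l2 did not pass. Without VEH animal 1 the adjusted p was 0.0992. Leaving out PB animal 7, the lowest of its group, gave a log2 fold change of -0.114 and the largest adjusted p, 0.148. The smallest difference, -0.109, came without VEH animal 12. For PB against LEV the adjusted p without PB animal 7 was 0.186. The difference had the same sign in both forms of code, as the plot of fold changes within each form shows, with PB animals 1 to 6 at 1788 ± 62.9 (SD, n = 6) against 1896 ± 119 in VEH animals 1 to 6 (n = 6). PB animals 7 to 14 stood at 1668 ± 144 (n = 8) against 1873 ± 239 in VEH animals (n = 7).

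Markers of cell types stand beside the result for Bcl2l2. Of 8 neuron marker transcripts, 7 had a log2 fold change below 0 for PB against VEH and 1 was called, Camk2a, which fell by 0.26 on the log2 scale (adjusted p = 0.0364, edgeR). The summed neuron markers ranged from 25400 to 33100 normalized counts in VEH, 20900 to 29100 in PB and 22800 to 30100 in LEV animals. The astrocyte marker Gfap rose by 0.32 (adjusted p = 0.00241) and the Slc1a3 transcript NM_019225 fell by 0.16 (adjusted p = 0.0286), the 2 called of 15 astrocyte marker transcripts. Of 7 microglial marker transcripts 0 were called by edgeR and 1 had an unadjusted p under 0.05, with summed medians of 2080 in VEH and 2100 in PB. All 3 skeletal muscle marker transcripts that could be tested were called lower in PB than in VEH (Atp2a1, Myh4 and Acta1). Of 14 PB animals, 5, 4 and 2 still lay above the mean of the VEH animals with their form of code. Summed over all 16 listed muscle transcripts, tested or not, normalized counts were 68.8 to 161 in PB (median 126) and 116 to 447 in VEH (median 164). Between PB and LEV, edgeR called 1 of 8 neuron marker transcripts lower in PB (Gad1, -0.18, adjusted p = 0.04). It also called 1 of 6 endothelial ones lower (Cldn5, -0.22, adjusted p = 0.0227), with 6 of 6 endothelial log2 fold changes below 0. Against VEH, 4 of the 6 endothelial transcripts were below 0 after PB, with 0 called and 3 at an unadjusted p under 0.05. After LEV, 6 of 6 were above 0 against VEH, with 0 at an unadjusted p under 0.05. Of 12 oligodendrocyte marker transcripts, several of them of Mbp, 11 had a log2 fold change below 0 for PB against LEV. Of these 12 edgeR called 0, and 5 had an unadjusted p under 0.05. Against VEH, 7 of the 12 were below 0 after PB and 0 had an unadjusted p under 0.05. After LEV, 10 of the 12 were above 0 against VEH, with 0 called and 6 at an unadjusted p under 0.05. The part of these markers in the values of Bcl2l2 was not tested.

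Mcl1 (NM_021846, chromosome 2, 197786212 to 197788993) encodes a guardian with a very short-lived protein. It had 423 to 582 normalized counts in VEH (median 500), 457 to 627 in PB (median 516) and 431 to 581 in LEV (median 511). The highest values belonged to PB animals, within a large overlap, and 9 of 14 PB animals lay above the mean of the VEH animals of their form of code. The log2 fold change of Mcl1 was 0.09 after PB (standard error 0.04, interval 0.00 to 0.18, p = 0.0464, adjusted p = 0.237 by edgeR) and 0.04 after LEV (interval -0.05 to 0.13, adjusted p = 0.95).

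Bcl2 (NM_016993, chromosome 13, 26605426 to 26769375), the founding member of the family, had few counts. It had 12.3 to 52 normalized counts in VEH (median 33.3), 19.4 to 45.6 in PB (median 29) and 13.8 to 41.2 in LEV (median 28.8). With a coefficient of variation of 31.8% over the animals, the comparison was imprecise: the log2 fold change was 0.01 after PB (standard error 0.17, interval -0.34 to 0.36, adjusted p = 0.986) and -0.08 after LEV (interval -0.43 to 0.28, adjusted p = 0.989). Changes as large as the limit of 0.32 in either direction after PB lie within that interval.

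The table lists 4 transcripts of Bcl2l1 (chromosome 3, 148259594 to 148313811), the gene of Bcl-xL, among which the quantification by the authors divided shared reads. NM_001033670 took a median of 93.2% of the gene's estimated counts (90.9% to 95.6% over the 41 animals), NM_001033672 took 6.11% (4.4% to 8.38%), NM_001033671 took 0.602% (at most 2.36%) and NM_031535 at most 0.279%. The spans of these transcripts overlap, so the smaller shares are uncertain. The main transcript had 1020 to 1360 normalized counts in VEH (median 1290), 1160 to 1380 in PB (median 1280) and 1050 to 1470 in LEV (median 1320). These ranges lay nearly on top of each other, and with a coefficient of variation of 7.21% it was the steadiest transcript of the family. Its log2 fold change was 0.01 after PB (interval -0.07 to 0.09, adjusted p = 0.912) and 0.03 after LEV (interval -0.05 to 0.11, adjusted p = 0.97).

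NM_001033672 had 60.7 to 108 normalized counts in VEH, 76.5 to 113 in PB and 60.7 to 98.8 in LEV, with log2 fold changes of 0.03 after PB (adjusted p = 0.871) and -0.03 after LEV (adjusted p = 0.989). NM_001033671 was at a rounded count of 0 in 2 VEH, 6 PB and 5 LEV animals and reached at most 31.3 normalized counts, so its log2 fold change of -0.45 after PB (standard error 0.59, adjusted p = 0.729) is loosely bounded. With the counts summed per gene symbol, Bcl2l1 had a log2 fold change of 0.01 after PB (standard error 0.04, adjusted p = 0.914 over 12168 genes) and 0.02 after LEV (adjusted p = 0.973).

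Among the BH3-only genes, Bbc3 (NM_173837, chromosome 1, 78261505 to 78267803), which encodes Puma, had the largest spread between PB animals. It had 184 to 264 normalized counts in VEH (median 205), 149 to 352 in PB (median 194) and 167 to 267 in LEV (median 217). PB animal 2 alone held the value of 352, and 12 of 14 PB animals lay below the mean of the VEH animals of their form of code. After PB its log2 fold change was -0.10 (standard error 0.08, interval -0.26 to 0.05, adjusted p = 0.489 by edgeR). Without PB animal 2 it was -0.17, with an adjusted p of 0.119. After LEV it was 0.01 (interval -0.15 to 0.16, adjusted p = 0.994).

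Bcl2l11 (NM_171988, chromosome 3, 120726906 to 120764193), the gene of Bim, had 145 to 306 normalized counts in VEH (median 177), 144 to 276 in PB (median 176) and 148 to 227 in LEV (median 200). A few animals of VEH and PB stood well above the rest. Its log2 fold change was -0.08 after PB (standard error 0.09, interval -0.27 to 0.10, adjusted p = 0.678) and 0.01 after LEV (interval -0.17 to 0.20, adjusted p = 0.991).

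Bid (NM_022684, chromosome 4, 153443220 to 153465248), which links death receptors to mitochondria once caspase-8 has cleaved it, had 88 to 151 normalized counts in VEH (median 116), 104 to 150 in PB (median 118) and 95.7 to 159 in LEV (median 117). The 3 medians were nearly equal, and the log2 fold change was 0.00 after PB (interval -0.16 to 0.15, adjusted p = 0.983) and 0.01 after LEV (adjusted p = 0.994). Bad (NM_022698, chromosome 1, 222198534 to 222207454), whose protein is held inactive by phosphorylation and 14-3-3 proteins, had 337 to 489 normalized counts in VEH (median 389), 366 to 519 in PB (median 406) and 348 to 463 in LEV (median 415). Both drug groups had the higher median and both overlapped VEH over most of the range. The log2 fold change of Bad was 0.05 after PB (interval -0.05 to 0.15, adjusted p = 0.622) and 0.06 after LEV (interval -0.04 to 0.15, adjusted p = 0.93), with 11 of 14 LEV animals above the mean of the VEH animals of their form of code.

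The balance of effector and guardian is often read as a ratio within one sample. As a description, with no test, the log2 ratio of the Bax to the Bcl2 normalized count averaged 4.15 ± 0.544 in VEH (SD, n = 13), 4.12 ± 0.462 in PB (n = 14) and 4.23 ± 0.413 in LEV (n = 14). The ratio of Bax to Bcl2l1 was -1.44 ± 0.182 in VEH, -1.45 ± 0.159 in PB and -1.44 ± 0.198 in LEV. The ratio of Bax to Mcl1 was 0.0145 ± 0.259 in VEH, -0.0856 ± 0.273 in PB and -0.00997 ± 0.245 in LEV. The ratio of Bax to Bcl2l2 was -1.91 ± 0.204 in VEH, -1.78 ± 0.201 in PB and -1.88 ± 0.169 in LEV. In each case the group means lay closer together than 1 SD between animals. These SDs take both forms of code together, so differences between the forms add to them. The sizes of these ratios are not numbers of molecules, since the counts are not scaled by transcript length.

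More family transcripts were called between the forms of sample code than between treatments. Between animals 7 to 14 (n = 23) and animals 1 to 6 (n = 18), 4 of 12 family transcripts passed the test and 30.2% of all tested transcripts did, so the family's share was near that of the background. Bax was lower in animals 7 to 14, at 476 ± 44.3 normalized counts against 541 ± 41.3 (log2 fold change -0.19, standard error 0.04, adjusted p = 0.000275 by edgeR), and so was Bbc3, at 197 ± 26.4 against 237 ± 37.7 (-0.27, standard error 0.06, adjusted p = 0.00103). Mcl1 was higher in animals 7 to 14, at 543 ± 49.2 against 478 ± 29.1 (0.18, standard error 0.04, adjusted p = 0.000106), and so was Bcl2l11, at 201 ± 35.9 against 171 ± 30.7 (0.23, standard error 0.08, adjusted p = 0.0156). The differences of Bax, Bbc3 and Mcl1 between the forms were larger than the differences between treatments in the same transcripts. This test was chosen after the data had been seen.

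Whether a drug effect differed between the forms of code was tested with an interaction term, and 0 of 12 family transcripts passed by edgeR in any comparison. Over all transcripts 0.0689% passed for PB against VEH, 0.842% for LEV against VEH and 0.023% for PB against LEV. The unadjusted p was under 0.05 for Bcl2 and Bbc3 in PB against VEH and for Bbc3 and Bid in LEV against VEH. Bbc3 after LEV had the smallest p of these. Its log2 fold change after LEV was 0.22 in animals 1 to 6 fitted alone (adjusted p = 0.37) and -0.17 in animals 7 to 14, a difference of -0.38 in the interaction fit (standard error 0.14, p = 0.0111, adjusted p = 0.218). Normalized counts of Bbc3 were 256 ± 7.65 (SD, n = 6) in LEV and 220.8 ± 20.5 (n = 6) in VEH among animals 1 to 6, and 193.3 ± 18.8 (n = 8) in LEV and 217.2 ± 27.8 (n = 7) in VEH among animals 7 to 14. After PB the log2 fold changes of Bbc3 were 0.08 for animals 1 to 6 and -0.25 for animals 7 to 14 (difference -0.33, standard error 0.14, p = 0.026, adjusted p = 0.379). For Bid the difference after LEV was 0.37 (standard error 0.15, adjusted p = 0.287), and for Bcl2 after PB it was 0.70 (standard error 0.34, adjusted p = 0.446).

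**Figure D3:**
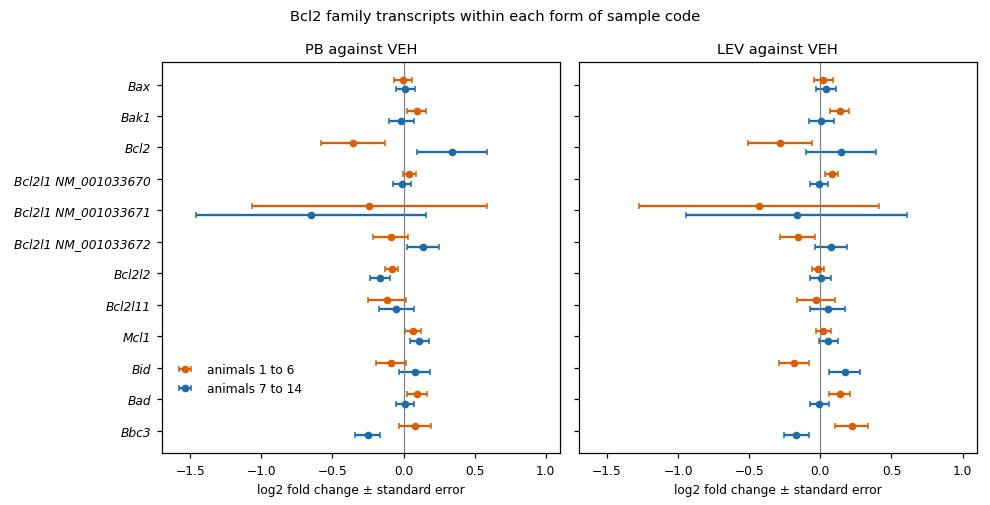
Log2 fold change against VEH with its standard error (horizontal axis) for each tested Bcl2 family transcript, fitted in animals 1 to 6 alone and in animals 7 to 14 alone, after PB (left) and LEV (right). Bcl2l2 lies below 0 in both forms after PB, and Bbc3 lies on opposite sides of 0 after LEV, at 0.22 and -0.17.

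From animal to animal the family did not rise and fall as one. Over the 63 pairs of transcripts from different genes, Pearson's r of log2 values across the 41 animals, with treatment and form of code removed, had a median of -0.00416 and was positive in 31. The highest was 0.496 (Bad with Bbc3), followed by 0.482 for Bid with Bcl2l1 NM_001033672. The lowest was -0.457, between the main transcript of Bcl2l1 and Bcl2l2. These values describe libraries that share depth and tissue makeup, and no test was made of them. Of transcripts of all other genes, the one closest in pattern to Bcl2l2 was Anks1b (r = 0.764), to the main Bcl2l1 transcript Prkag1 (0.763), to Bbc3 Sqstm1 (0.752), to Bad Cops4 (0.75) and to Bid Hmgb2 (0.634). For Bcl2 it was Chst7 (0.6), for Bak1 Pou3f2 (0.595), for Bax Mid1ip1 (0.59) and for Mcl1 Golga5 (0.538). For the smaller Bcl2l1 transcripts it was Heatr6 (0.601, NM_001033671) and Bcl9l (0.574, NM_001033672). Each is the highest r among all tested transcripts of other genes, and such a maximum can be high without any relation. Whether these pairs vary together was not tested.

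**Figure D4:**
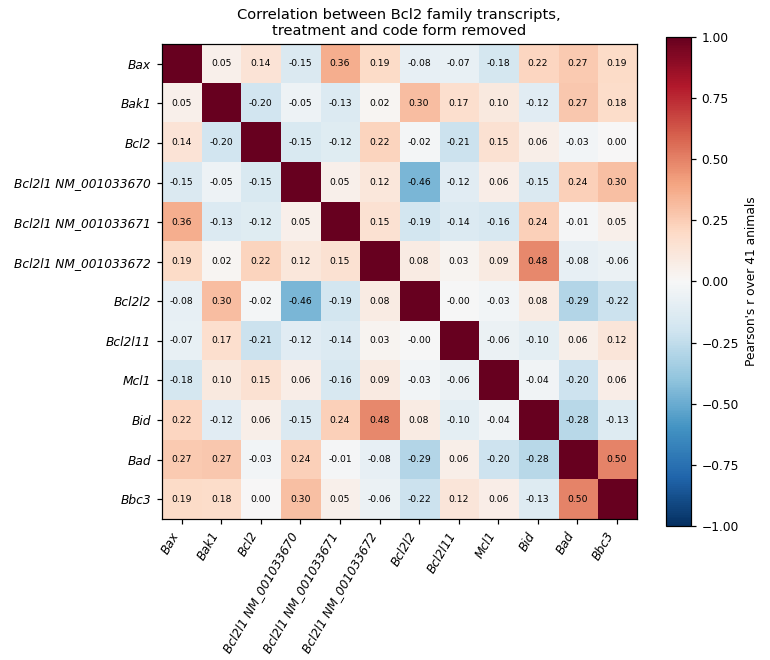
Pearson's r between the 12 tested Bcl2 family transcripts over 41 animals, on log2 values with treatment and form of code removed (colour scale from -1 to 1). Most cells are pale, and the strongest off the diagonal are Bad with Bbc3 at 0.496, Bid with Bcl2l1 NM_001033672 at 0.482 and the main Bcl2l1 transcript with Bcl2l2 at -0.457.

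The wider pathway was followed with 3 lists. The list of other Bcl2 family genes had 10 transcripts tested, of 15 in the table, and edgeR called 0 of them in each comparison, with unadjusted p under 0.05 for 0, 1 and 1 in PB against VEH, LEV against VEH and PB against LEV. Their median log2 fold change was -0.0228 for PB against VEH, beside 0.00462 over all transcripts. They include Bok, a further effector-like gene (-0.07 after PB), and the BH3-only genes Hrk (-0.05) and Bmf (0.19). Bik, Pmaip1, Bcl2l10, Bcl2l14 and Bcl2l15 were in the table below the filter.

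The genes of mitochondrial release and caspases had 17 transcripts tested, of which 2 listed for Casp6 have the same values. Between PB and VEH 1 was lower and 0 were higher, and edgeR called 0 in the other comparisons, with 0 at an unadjusted p under 0.05 for LEV against VEH and 3 for PB against LEV. The lower one was Vdac3 (chromosome 16, 74292466 to 74308912), a channel of the outer mitochondrial membrane. Vdac3 had 2462 to 2955 normalized counts in VEH (median 2871), 2402 to 2824 in PB (median 2640) and 2574 to 3013 in LEV (median 2768), ranges that overlapped. Its log2 fold change for PB against VEH was -0.10 (standard error 0.03, adjusted p = 0.0398 by edgeR), and it passed in 25 of 41 fits that left out 1 animal. Without VEH animal 1 it was no longer called. Transcripts that did not pass by edgeR include Cycs, the gene of cytochrome c (-0.15, adjusted p = 0.0708), Casp9 (-0.06, adjusted p = 0.506) and Apaf1 (0.06, adjusted p = 0.508). DESeq2 called Cycs and Vdac2, another channel of the outer membrane, for which edgeR gave -0.08 and an adjusted p of 0.0505.

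The genes that act on the family, such as kinases, phosphatases, transcription factors and 14-3-3 proteins, had 34 transcripts tested, with 2 of Mapk10 at the same values. Between PB and VEH 5 were lower and 0 higher, between PB and LEV 4 were lower and 0 higher, and between LEV and VEH edgeR called 0, with 2 at an unadjusted p under 0.05. None of the called transcripts reached the limit on the size of the change. Over all tested transcripts, 452 were called lower and 252 higher between PB and VEH, and 363 lower and 218 higher between PB and LEV. The 3 lists had 10, 17 and 34 transcripts tested. The 6 called in them between PB and VEH are to be read beside the 5.39% of all transcripts. The 4 called between PB and LEV are to be read beside 4.45%.

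Of those called, 3 encode 14-3-3 proteins, which bind phosphorylated Bad in the cytosol among many other partners. Ywhab had 13590 to 16370 normalized counts in VEH (median 15070), 11120 to 15000 in PB (median 14070) and 14020 to 15600 in LEV (median 14520). The PB range was shifted down and overlapped both others, and the log2 fold change was -0.13 against VEH (standard error 0.03, adjusted p = 0.00534) and -0.10 against LEV (adjusted p = 0.0279). Ywhag had 9612 to 11930 in VEH, 7285 to 10510 in PB and 9308 to 11630 in LEV, with -0.14 against VEH (standard error 0.04, adjusted p = 0.0182) and all 14 PB animals under the mean of the VEH animals with their form of code. Ywhah had 17060 to 18900 in VEH, 13200 to 17790 in PB and 15440 to 19790 in LEV, with -0.14 against VEH (standard error 0.04, adjusted p = 0.0188) and 13 of 14 PB animals below. These 3 were called for PB against VEH in 41 of 41 fits that left out 1 animal. None of them was called in animals 1 to 6 alone or with the excluded VEH animal kept. PB animal 2 held the lowest value of each. Other 14-3-3 genes did not pass by edgeR over all animals: Ywhae had -0.07 (adjusted p = 0.0819), Ywhaz -0.05 (adjusted p = 0.269) and Ywhaq -0.01 (adjusted p = 0.915). DESeq2 called Ywhae.

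Jun, a transcription factor subunit that acts upstream of BH3-only genes in dying neurons, had 1396 to 1980 normalized counts in VEH (median 1851), 1213 to 1868 in PB (median 1610) and 1654 to 2058 in LEV (median 1833). The PB animals extended lower than both other groups. The log2 fold change of Jun was -0.16 against VEH (standard error 0.05, adjusted p = 0.0291) and -0.17 against LEV (adjusted p = 0.0226). Ppp3ca, the catalytic subunit of calcineurin, which can dephosphorylate Bad, had 6420 to 7902 in VEH (median 6961), 5830 to 7247 in PB (median 6347) and 5986 to 7688 in LEV (median 6885). It was lower after PB than after VEH (-0.13, standard error 0.04, adjusted p = 0.034) and did not pass against LEV (-0.10, adjusted p = 0.106). Jun passed in 37 and Ppp3ca in 30 of the 41 fits for PB against VEH. Without PB animal 7 neither was called, nor was Vdac3. All 6 called transcripts had negative log2 fold changes for PB against VEH in each form of code alone, from -0.0159 (Vdac3) to -0.119 (Ywhag) in animals 1 to 6, of which 0 passed there, and from -0.153 (Ywhag) to -0.213 (Jun) in animals 7 to 14, where 4 pathway transcripts passed (Ywhab, Ywhae, Ywhah and Vdac3). The neuron marker Camk2a was also called lower in PB than in VEH animals, 1 of 8 neuron marker transcripts, and the part of such markers in these values was not tested.

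**Figure D5:**
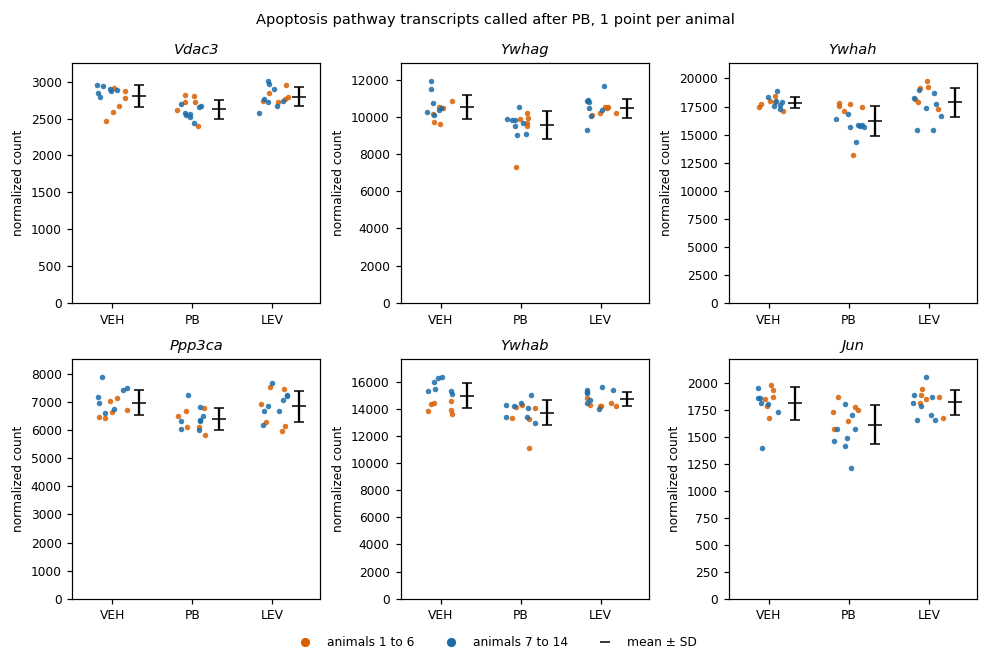
Normalized count (vertical axis, from 0) in each animal of the 6 pathway transcripts called between PB and VEH, coloured by form of sample code, with the group mean and SD. The PB points are shifted down within overlapping ranges, as for Ywhab with a PB median of 14070 against 15070 in VEH.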

How the data were processed

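Hippocampal RNA of 41 rat pups was analysed (13 VEH, 14 PB and 14 LEV), and 1 VEH animal that the study excluded was used only where named. Per the study's methods, the authors trimmed and filtered the reads, aligned them to rn6 with STAR 2.7.3a and estimated counts per RefSeq transcript with Partek E/M. The deposited estimated counts carry no normalization (13.7% of values are not whole) and were rounded here. The authors' deposited table of DESeq2 comparisons holds their own findings and was not used.

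In R 4.3.3, edgeR 4.0.16 was run with TMM scaling, filterByExpr by treatment, glmQLFit and glmQLFTest. One model held the 3 groups and the form of the sample code. Adjusted p values are Benjamini-Hochberg values over all 13062 tested transcripts, and a transcript was called when its adjusted p was under 0.05. Standard errors and 95% intervals are on the log2 scale. The procedure was tested on simulated data with changes far larger than those of the well-counted family transcripts and no difference between the forms of code. That test does not show how well differences as small as that of Bcl2l2 are found. Effective library sizes lay between 9588079 and 13786159, and the standard errors carry the precision that this depth gives. Litters are not given in the labels, so animals were treated as independent.

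The family members, the 3 pathway lists and the marker lists were chosen with earlier results of these data known. Named were all member transcripts, the called transcripts of the pathway lists and, for each tested member transcript but that of Bcl2l11, the transcript of another gene with the nearest pattern. Some results are not reported here. Any further gene was named with its values known. Alternatives were DESeq2 1.42.0, edgeR with the size factors of DESeq2, tests without a filter or with a minimum mean of 50 counts, no code form term, each form alone, the animal number as a block, the excluded animal kept, robust dispersion, fits of only the 2 groups compared, sums per gene and each animal left out in turn. The alternatives for the interaction term were added after seeing the data. No sequences are shown, since protein sequences and transcript lengths were not used here.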

Additional observations from a re-analysis of the deposited data

Results flagged for a closer look

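The VEH animal that the study excluded (animal 7) had levels of 3 tested family transcripts above those of all 13 other VEH animals. Bak1 stood at 382 normalized counts, where the highest other VEH animal had 315. The main Bcl2l1 transcript, NM_001033670, stood at 1890 against a highest value of 1360, and NM_001033672 at 132 against 108. The untested Bcl2l1 transcript NM_031535 stood at 10.5 against 2.23. In the same animal 3 transcripts lay below all other VEH animals: Bax at 292 against a lowest value of 421, Mcl1 at 327 against 422, and Bbc3 at 124 against 184. The other 6 tested family transcripts lay within the VEH range. Of all 13075 transcripts tested with this animal in the table, 63.7% lay outside the VEH range (4154 above and 4169 below), so such values are common in this library, whose total was 11928895 estimated counts.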

How the results depend on the processing

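With 0 family transcripts called in each comparison, the same count of 0 came from every alternative fit run but those without VEH animal 8 or VEH animal 9. There Bcl2l2 made it 1 for PB against VEH (range over fits without 1 animal 0 to 1). Over the fits without 1 animal, the log2 fold change of Bcl2l2 for PB against VEH lay between -0.15 and -0.109. Its adjusted p by edgeR lay between 0.0378 and 0.148. Over the other settings the adjusted p of Bcl2l2 lay between 0.0573 (DESeq2) and 0.469 for PB against VEH and between 0.0585 and 0.516 for PB against LEV. Of 414 member values under 12 settings 0 were called, and 32 uncalled differences changed sign. The 414 include values for which DESeq2 gave no adjusted p, which could not be called.

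The pathway calls depended on the fit. Between PB and VEH 6 were called. The number was 3 without the code form term, 3 with only the 2 groups compared, 1 with the excluded animal kept (Jun), 0 in animals 1 to 6 alone, 9 with DESeq2, and 3 to 8 with 1 animal left out. Between PB and LEV 4 were called. The number was 7 with DESeq2, 2 without the code form term, 1 with the excluded animal kept, 0 in each form of code alone, and 2 (without PB animal 7) to 6 (without VEH animal 9 or PB animal 5) with 1 animal left out. Between LEV and VEH the count of 0 became 1 in animals 1 to 6 alone. The forms alone hold fewer animals. For the rest the cause was not tested.

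With the animal number as a replicate block, 0 members were called in each comparison, and 4, 0 and 4 pathway transcripts. Deviations of same-numbered PB and VEH animals correlated between -0.255 and 0.281 (13 pairs), and 1 of 41 animals correlated best with its own number. These values showed no sign of pairing by number. They do not decide whether equal numbers mark littermates, because the size of any litter effect was not known. The low counts of Bcl2 and Bcl2l1 NM_001033671 limit the precision for them.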

Other observations

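The spread of Bcl2l11 between animals was uneven. In animals 7 to 14 its normalized counts were 208.5 ± 8.82 (SD, n = 8) in LEV, 193.7 ± 40.2 (n = 8) in PB and 201.4 ± 50.9 (n = 7) in VEH animals. The 2 highest VEH values, 273 in animal 2 and 306 in animal 9, lay in different forms of code. Without VEH animal 2 the log2 fold change for PB against VEH was -0.0133 in place of -0.0813. The difference in spread was not tested. Bcl2l13, a family relative of the mitochondrial outer membrane, had a log2 fold change of 0.26 for PB against LEV (p = 0.00585, adjusted p = 0.0831 by edgeR) and was above the LEV mean of the same form of code in 13 of 14 PB animals. It had 0.03 for PB against VEH (adjusted p = 0.883) and -0.23 for LEV against VEH (p = 0.0167, adjusted p = 0.78), with 12 of 14 LEV animals below the VEH mean.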
